A study of Mus musculus with 141 samples.

Results

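Livers with the highest expression of the serum amyloid A genes Saa1 and Saa2 were compared with livers with the lowest, within a panel of 47 Collaborative Cross (CC) strains, which are recombinant inbred mice that each carry a mosaic of the same founder genomes. The members were chosen by measured values: each liver was given a score, the mean of log2(CPM + 1) of Saa1 and Saa2, with CPM the expected count per 1000000 counts of the library total without the ribosomal transcript Rn45s, and the 16 highest of the 47 livers were set against the 16 lowest, leaving 15 between them. The whole series holds 141 RNA-seq libraries, 1 each of liver, lung and kidney from the 47 mice. Because Saa1 and Saa2 set the groups, they are described and not tested in liver.

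Both groups were male mice of 8 to 12 weeks, 1 mouse per strain, and all had been kept in mesh chambers with clean air for 6 hours a day over 2 weeks and given nembutal before the tissues were taken. No group received a treatment that the other lacked. The high group, in falling order of the score, held strains CC004, CC016, CC019, CC062, CC024, CC040, CC020, CC042, CC007, CC023, CC025, CC017, CC011, CC028, CC059 and CC035. The low group held CC038, CC036, CC006, CC021, CC029, CC046, CC027, CC001, CC049, CC033, CC013, CC039, CC037, CC053, CC041 and CC002. With 1 mouse per strain, a genetic difference between strains and the state of a single animal on the day of collection cannot be told apart, and the labels give no batch. Totals without Rn45s ran from 3053771 to 11844350 counts in the high livers (median 6827966) and from 1341632 to 14498126 in the low livers (median 4645800). Rn45s itself took a median of 40.7% of counts in the high and 34.3% in the low livers (60.1% in CC016), 43.2% and 18.3% in their kidneys and 25.2% and 13.9% in their lungs. The 20 most abundant other genes held a median of 44.1% and 37.4% of the remaining liver counts. The part of these differences in the results was not tested beyond the fits with Rn45s kept and with the library total as a covariate. Summed hepatocyte markers reached at least 92380 CPM in each of the 32 livers, against at most 16140 in kidney and 581 in lung of the same mice.

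Serum amyloid A proteins are made by hepatocytes, bind high-density lipoprotein and are the classical acute-phase reactants of the mouse. During an acute-phase response, interleukin-1, tumour necrosis factor and interleukin-6 reach the liver, signal through NF-kB, STAT3 and C/EBP factors, and raise the transcription of positive acute-phase genes such as Saa1, Saa2, the orosomucoids (Orm1 to Orm3), haptoglobin (Hp) and lipocalin 2 (Lcn2). Negative acute-phase genes, such as albumin (Alb) and transthyretin (Ttr), fall in the same response. In mice, Saa3 is made largely outside the hepatocyte, and Saa4 is expressed constitutively in liver.

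The score was not spread evenly over the livers. Saa1 reached 3471 CPM and Saa2 2092 CPM in the liver of CC004, the highest score (11.4), and 859 and 872 CPM in CC016, the second (9.76). The next liver, CC019, had 194 and 159 CPM. Over the 16 high livers Saa1 ran from 24.5 to 3471 CPM with a median of 94.8, and over the 16 low livers from 4.64 to 31.6 CPM with a median of 11.3. Saa2 ran from 12.6 to 2092 CPM in the high livers (median 36.4) and from 0.732 to 11.4 in the low (median 5.04). The last liver inside the high group, CC035, scored 4.588 and the first outside it, CC055, 4.555. The first liver inside the low group, CC038, and the nearest outside it, CC043, differed only at the fourth decimal (3.6424 and 3.6426). The group boundaries therefore cut through a continuous range, while CC004 and CC016 stood apart from the remaining 45 livers.

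**Figure D1:**
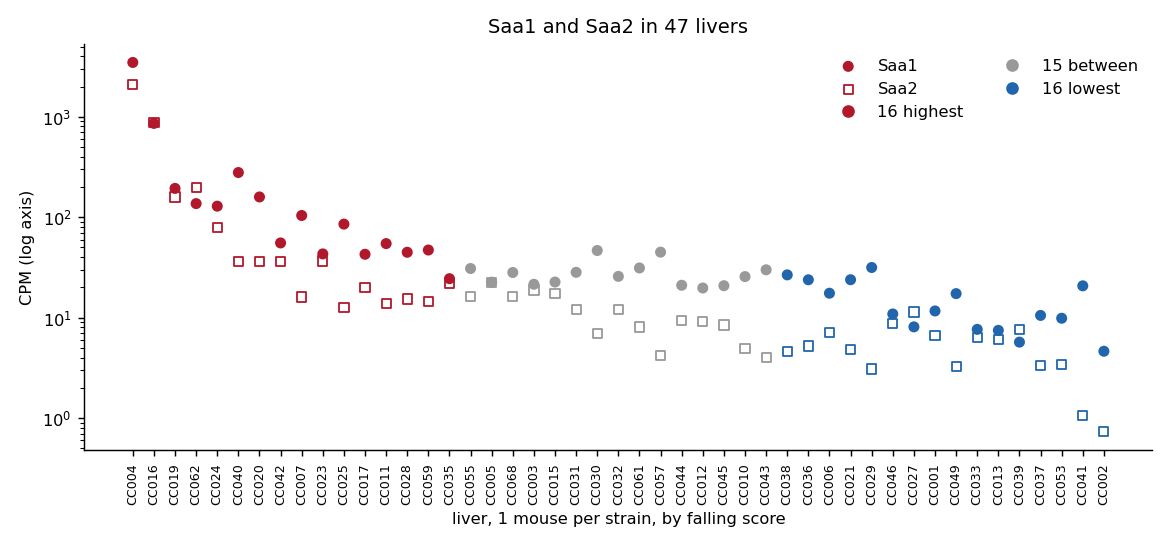
Saa1 (filled circles) and Saa2 (open squares) in CPM on a log axis for the 47 livers, 1 mouse per strain, in falling order of the score, with the 16 highest in red, the 15 between in grey and the 16 lowest in blue. CC004, with 3471 CPM of Saa1, and CC016, with 859, lie above all other livers, and the rest fall off without a gap at the group boundaries.

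The proximal promoters of 6 genes that the results turn on are shown because C/EBP, NF-kB and STAT factors are known to act on acute-phase genes at such sites. The 200 bases before the start come from RefSeq promoter tables (GRCm38.p6), which held 11 of 15 genes looked up; no entry was found for Orm1, Hp, C4b and Serping1. Capitals mark matches to 3 motifs searched on both strands: the C/EBP motif TTGCNNAA, the NF-kB motif GGNNTTTCC and the STAT motif TTCNNNGAA. The sequences, 5′ to 3′ on the strand of the gene, are those of Saa1 (chr7:46742981-46743180, minus strand), Saa2 (chr7:46751633-46751832, plus strand), Saa3 (chr7:46715677-46715876, minus strand), Saa4 (chr7:46732604-46732803, minus strand), Orm2 (chr4:63362249-63362448, plus strand) and Lcn2 (chr2:32387740-32387939, minus strand).
Saa1: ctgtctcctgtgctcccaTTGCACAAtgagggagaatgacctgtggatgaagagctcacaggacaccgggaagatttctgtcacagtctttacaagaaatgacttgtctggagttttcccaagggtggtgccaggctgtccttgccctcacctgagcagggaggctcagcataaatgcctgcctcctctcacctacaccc
Saa2: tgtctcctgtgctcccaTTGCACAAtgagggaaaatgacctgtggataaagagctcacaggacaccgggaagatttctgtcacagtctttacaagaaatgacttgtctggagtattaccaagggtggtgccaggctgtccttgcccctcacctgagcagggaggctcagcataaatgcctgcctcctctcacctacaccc
Saa3: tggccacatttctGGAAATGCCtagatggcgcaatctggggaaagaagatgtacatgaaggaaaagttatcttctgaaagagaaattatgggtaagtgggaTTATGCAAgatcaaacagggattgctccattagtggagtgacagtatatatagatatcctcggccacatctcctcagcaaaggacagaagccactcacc
Saa4: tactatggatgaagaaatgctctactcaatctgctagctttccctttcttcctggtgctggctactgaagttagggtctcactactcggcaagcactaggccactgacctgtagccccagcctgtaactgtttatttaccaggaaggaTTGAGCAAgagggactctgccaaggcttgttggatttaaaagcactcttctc
Orm2: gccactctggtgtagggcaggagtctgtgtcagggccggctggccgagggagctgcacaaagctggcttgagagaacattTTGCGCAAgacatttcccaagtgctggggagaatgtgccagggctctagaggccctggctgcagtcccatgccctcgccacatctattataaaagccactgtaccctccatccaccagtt
Lcn2: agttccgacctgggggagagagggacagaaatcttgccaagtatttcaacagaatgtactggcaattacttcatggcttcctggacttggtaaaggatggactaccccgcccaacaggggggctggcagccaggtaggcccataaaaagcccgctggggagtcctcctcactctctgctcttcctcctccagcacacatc
A C/EBP match lay in 5 of these 6 promoters, and in 7 of the 11 looked up, against 7.47% of the 32851 promoters of the table searched over the same length, and Lcn2 had no match to any of the 3 motifs in this window. Saa3 alone of the 6 had an NF-kB match, with Cxcl1 2 of the 11, against 4.05% of all promoters. The STAT motif was in none of the 6 and in 1 of the 11, Steap4, against 5.49%. Slc39a2 and Lrg1 had no match to any of the 3 motifs. The palindromic match in Orm2 reads as C/EBP on both strands. The 6 include both scoring genes, Saa1 and Saa2, whose matches have the same letters, and a match describes letters and not binding. Orm2 and its paralog Orm3 both had a C/EBP match, so the matches of the 11 are not independent. The sequences are those of the reference genome, and the founder sequence that each CC liver carried at these genes was not examined.

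The SAA genes form a cluster on chromosome 7 (NCBIM37, the build of the files): Saa3 from 53967368 to 53971046, Saa4 from 53983387 to 53987913, Saa1 from 53995871 to 53998350 and Saa2 from 54007203 to 54009684. Their transcripts share some sequence at the read length of 50 bases. Of the 50-base windows of Saa1, 9.17% also occurred in Saa2 and 1.62% in Saa3, and Saa4 shared none with Saa1, Saa2 or Saa3. Of the windows of Orm1, 20.4% also occurred in Orm2, so a part of the Orm1 and Orm2 sequence could not be assigned by uniquely aligned reads.

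Across 10191 genes tested with limma-voom between the 16 high and the 16 low livers, 1 gene was called at q ≤ 0.05 (0.00981% of those tested), and it was lower in the high livers. At an unadjusted p under 0.05, 516 genes were higher (5.06%) and 421 lower (4.13%). No gene separated the groups without overlap. No acute-phase gene was called between the groups chosen to differ most in Saa1 and Saa2.

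The gene called was Slc39a2, a zinc importer of the plasma membrane (chromosome 14, 52512564 to 52516420, NCBIM37). Its level was between 0.307 and 13.4 TMM-scaled CPM in the high livers, with a median of 1.43, and between 1.55 and 19.1 in the low livers, with a median of 6.42. Only 2 of the 16 high livers lay above the low median, and the groups overlapped. Over the 32 livers 3 counts correspond to between 0.207 and 2.24 CPM depending on depth. The high median lay within that range, so it rested on low counts. Slc39a2 fell by 2.49 on the log2 scale (SE 0.45, adjusted p = 0.0378 with limma-voom). The call was held in 20 of 32 fits that each left out 1 liver, with log2 values from -2.84 to -2.29. It was lost without CC020, CC042, CC007, CC023, CC025, CC028, CC038, CC046, CC027, CC013, CC039 or CC002, with adjusted p between 0.0542 and 0.113. The edgeR quasi-likelihood test and DESeq2 gave smaller changes (-1.46 and -1.43) with adjusted p of 0.442 and 0.226. Slc39a2 was also not called with the library total as a covariate, with total counts in place of TMM or with log2(TPM + 1). It was not called either when the score was fitted as a continuous measure over the 47 livers. In lung its median was 5.21 CPM in the high mice and 4.58 in the low mice, a log2 difference of 0.15 (SE 0.24), and in kidney it did not pass the low-count filter. The genes next to the threshold, named after their values were seen, were Gm7694, the insulin receptor gene Insr and the urate-degrading enzyme gene Urad. Insr had medians of 4.48 CPM in the high and 2.80 in the low livers, with all 16 high livers above the low median and the ranges overlapping, and a log2 difference of 0.64 (SE 0.13, adjusted p = 0.0528). Gm7694 had medians of 10.6 and 6.10 CPM (0.83, SE 0.16, adjusted p = 0.0528) and Urad 16.5 and 26.5 CPM (-0.65, SE 0.13, adjusted p = 0.0573), and all 3 passed with DESeq2.

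Of the SAA genes left for testing, Saa4 had the smaller p. It ran from 235 to 1174 CPM in the high livers (median 483) and from 54.6 to 568 in the low livers (median 285). A majority of high livers, 15 of 16, lay above the low median, and 6 lay above every low liver. The log2 difference was 1.003 (SE 0.25), with an unadjusted p of 2.98e-04 and an adjusted p of 0.339 in limma-voom, so Saa4 did not pass over all genes. It passed with the DESeq2 Wald test (adjusted p = 0.0267) and did not with edgeR (adjusted p = 0.185). The inducible member Saa3 ran from 0.212 to 173 CPM in the high livers (median 4.26) and from 0.172 to 9.13 in the low (median 1.53). Only CC004 and CC016 exceeded the highest low liver for Saa3, and its log2 difference of 1.10 had an SE of 0.68 and an adjusted p of 0.639.

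Lcn2, a siderophore-binding protein of innate defence, ran from 0.658 to 397 CPM in the high livers (median 7.89) and from 0.353 to 7.32 in the low (median 2.33). Of the 16 high livers, 8 lay above every low liver, but the other high livers were spread through the low range. Its log2 difference was 1.34 (SE 0.86, adjusted p = 0.655). The orosomucoids, plasma carriers of basic compounds, varied widely among strains within both groups. Orm1 ran from 10.4 to 2361 CPM in the high and from 0.979 to 814 in the low livers, Orm2 from 0.518 to 996 and from 0.196 to 87.4, and Orm3 from 1.87 to 90.2 and from 0.383 to 157. Their log2 differences were 0.85 (SE 0.70), 0.65 (SE 0.77) and 0.66 (SE 0.71). Orm1 was at 10.4 CPM in the high liver of CC042 and at 0.979 CPM in the low liver of CC053, against medians of 716 and 557 in the groups.

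Of the other plasma proteins fixed for naming, Hp, which binds free haemoglobin, had a median of 211 CPM in the high and 138 in the low livers and a log2 difference of 0.43 (SE 0.20, adjusted p = 0.523). The pentraxins Crp and Apcs gave 0.05 (SE 0.11) and -0.27 (SE 0.44), and hepcidin (Hamp), the hormone that restricts iron export, 0.16 (SE 0.23). In mice Apcs, and not Crp, is the main acute-phase pentraxin. Apcs had a lower median in the high livers, 174 CPM against 225, although CC004 held the highest value of all, 1747 CPM, and CC016 had 519.

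**Figure D2:**
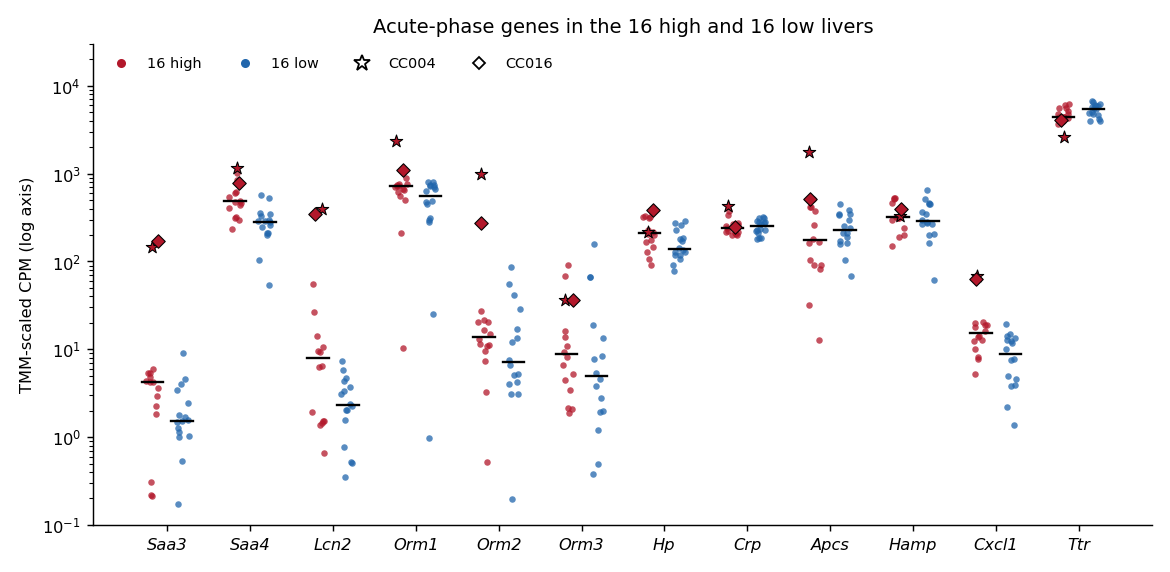
TMM-scaled CPM on a log axis of 12 acute-phase genes in each of the 16 high (red) and 16 low (blue) livers, with black bars at the group medians, a star for CC004 and a diamond for CC016. The groups overlap for every gene, and CC004 and CC016 lie far above the rest for Saa3, Lcn2 and Orm2.

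Counted as a list, the positive acute-phase proteins leaned one way. Of 37 tested members other than Saa1 and Saa2, 10 were higher at an unadjusted p under 0.05 and 0 lower, against 5.06% and 4.13% of all genes, and the median log2 difference was 0.22, against 0.00 over all genes tested. None passed the adjusted threshold. The 10, named after their values were seen, were Saa4, Hp, hemopexin (Hpx), lipopolysaccharide-binding protein (Lbp), ceruloplasmin (Cp), Steap4, Lrg1, Tifa and the metallothioneins Mt1 and Mt2. The metallothioneins, which buffer zinc and copper, had the largest differences, 1.87 (SE 0.63) for Mt1 and 2.10 (SE 0.80) for Mt2, with adjusted p of 0.428 and 0.448. Mt1 had a median of 59.9 CPM in the high and 23.8 in the low livers, and 5 high livers lay above every low liver. Lrg1, a secreted leucine-rich glycoprotein and with Saa4 the only member that passed with DESeq2, had medians of 127 and 61.7 CPM, 9 high livers above every low liver, and a log2 difference of 0.79 (SE 0.26, adjusted p = 0.428).

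The 18 tested negative acute-phase proteins had a median log2 difference of -0.07, with 0 higher and 2 lower at an unadjusted p under 0.05. Over all genes 5.06% were higher and 4.13% lower. The 2 were the transthyretin gene Ttr and the lipoprotein-bound esterase gene Pon1. Ttr, the thyroxine and retinol carrier, had medians of 4434 CPM in the high and 5498 in the low livers, and 4 of 16 high livers lay above the low median. Its log2 difference was -0.22 (SE 0.10, adjusted p = 0.522). Alb gave 0.06 (SE 0.12) and Apoa1, the main protein of high-density lipoprotein, -0.05 (SE 0.10). Apoa2 gave 0.08 (SE 0.21), at counted levels of only 1.24 to 12.4 CPM. Whether the counting lowered the Apoa2 values was not tested.

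The cytokines that drive the response were near or below detection in whole liver. Il6 had no count in any of the 32 livers, where a floor of 3 counts corresponds to between 0.207 and 2.24 CPM depending on depth; such floors cover counting error only. Tnf had a count in 4 high livers and in 0 low livers, reaching 1.46 CPM in CC016. Il1b had a median of 3.31 CPM in the high and 2.11 in the low livers, and a log2 difference of 0.21 (SE 0.34, adjusted p = 0.886). The shared receptor subunit of the interleukin-6 family, Il6st, had medians of 349 and 316 CPM (0.12, SE 0.08), and Lifr gave 0.12 (SE 0.16) and Il1r1 0.31 (SE 0.29). Socs3, the feedback inhibitor induced by STAT3, had medians of 22.4 and 15.1 CPM and a log2 difference of 0.48 (SE 0.29, adjusted p = 0.638). The remaining regulators gave 0.02 (SE 0.31) for Stat3, 0.09 (SE 0.26) for Cebpd, 0.01 (SE 0.13) for the NF-kB inhibitor gene Nfkbia and -0.13 (SE 0.11) for Creb3l3, a hepatocyte factor activated at the endoplasmic reticulum.

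Several of these regulators were measured poorly. Il6ra and Osmr did not pass the low-count filter, Cebpb had no count in any of the 32 livers, and Stat3 reached only 2.92 CPM. The files list more than 1 transcript for each of these 4 genes. Over all genes, 26.2% of those with more than 1 listed transcript passed the filter, against 46.9% of those with 1, and whether the counting lowered their values was not tested.

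In the list of interleukin-1, tumour necrosis factor and NF-kB signalling, 3 of 33 tested members were higher at an unadjusted p under 0.05 and 0 lower, with a median log2 difference of 0.13. The neutrophil chemokine Cxcl1 was among them, with medians of 15.2 CPM in the high and 8.97 in the low livers and a log2 difference of 1.20 (SE 0.34, adjusted p = 0.428). The interleukin-6 family and STAT3 list had 1 of 17 higher and 0 lower (median 0.05), and the type I interferon list 1 of 31 higher and 0 lower (median 0.14). Complement had 2 of 29 higher and 1 lower, the higher being C4b (0.44, SE 0.12, adjusted p = 0.428) and Serping1, the C1 inhibitor (0.28, SE 0.11, adjusted p = 0.466). Coagulation and fibrinolysis had 2 of 31 higher and 0 lower, and iron handling 5 of 25 higher and 0 lower, 4 of which, Hp, Hpx, Cp and Steap4, are also on the acute-phase list. These shares stand beside 5.06% higher and 4.13% lower over all genes.

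The list with the most members lower, picked out after the counts were seen, was endoplasmic reticulum folding and secretory stress. It had 1 of 33 higher and 7 lower at an unadjusted p under 0.05 and a median log2 difference of -0.11. Over all genes 5.06% were higher and 4.13% lower, shares that stand beside each list of this paragraph. The 7, named after their values were seen, were Creld2, Sdf2l1, Manf, Pdia4, Hyou1, Dnajb11 and Sec61b, which take part in protein folding and entry into the secretory pathway. Creld2 had medians of 20.2 CPM in the high and 30.9 in the low livers and a log2 difference of -0.62 (SE 0.19, adjusted p = 0.428). Manf, a secreted stress protein, had medians of 54.6 and 75.6 CPM, and only 1 of 16 high livers lay above the low median (-0.45, SE 0.15, adjusted p = 0.428). For Creld2, Sdf2l1, Manf and Pdia4 the highest of the 47 values was in the low liver of CC036. That liver had the shallowest library of the 47, with 1341632 counts. Fatty acid oxidation and PPAR-alpha targets had 0 of 27 higher and 4 lower (median -0.15), among them the pyruvate dehydrogenase kinase gene Pdk4 (-1.01, SE 0.35, adjusted p = 0.433). Glucocorticoid-responsive genes had 4 of 21 higher and 0 lower, of which Mt1 and Mt2 are also on the acute-phase list, with a median of -0.09 over the list.

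The remaining lists held 0 to 3 members at an unadjusted p under 0.05 in a direction, beside 5.06% higher and 4.13% lower over all genes. High-density lipoprotein and cholesterol efflux had 0 of 20 higher and 2 lower, sterol and fatty acid synthesis 0 of 22 higher and 1 lower with a median of -0.21, bile acid synthesis and transport 0 of 21 higher and 2 lower, drug-metabolising cytochromes P450 1 of 31 higher and 0 lower, growth hormone and male-biased genes 1 of 20 higher and 3 lower, proliferation 1 of 15 higher and 0 lower, and immediate-early genes 0 of 13 in either direction.

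Because the score ran far higher in CC004 and CC016 than in the other livers, the score was also fitted as a continuous measure over the 47 livers. Of 10149 genes tested, 66 rose with the score (0.65%) and 23 fell (0.227%) at q ≤ 0.05 in limma-voom. Saa3 rose by 0.80 on the log2 scale per unit of the score (SE 0.09, adjusted p = 2.79e-07), Lcn2 by 0.88 (SE 0.11, adjusted p = 2.92e-06) and Orm2 by 0.73 (SE 0.12, adjusted p = 2.11e-04). Of 37 positive acute-phase members in this fit, 7 rose and 0 fell, the others being Saa4 (0.29), Lrg1 (0.30), Steap4 (0.21) and Cp (0.08), and the list's median slope was 0.13 against 0.00 over all genes. Cxcl1 (0.38), C4b (0.15), Serping1 (0.12) and the histidine-rich glycoprotein gene Hrg (0.12) also rose. In 47 further fits that each left out 1 liver, between 24 and 146 genes were called. The count moved by over 1.5 times on leaving out CC004 (36), CC016 (24), CC019 (134), CC062 (146), CC053 (135) or CC002 (56). A set of 10 genes was called in all 47 of these fits, and they were Saa3, Saa4, Lcn2, C4b, Serping1, Steap4, Cxcl1, Prg4, Nos1ap and Gm7694.

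The calls rested on CC004 and CC016 together. Without both livers, 0 of 10182 genes passed the adjusted threshold in the slope fit, with 1033 at an unadjusted p under 0.05, and 1 gene, Slc39a2, was called between the remaining high and the 16 low livers. The slopes of Saa3, Lcn2 and Orm2 dropped to 0.20, 0.27 and 0.22 without the pair, whereas those of Saa4 (0.33) and C4b (0.13) stayed near their earlier values, with adjusted p of 0.162 for both. The median slope of the 66 was 0.19 over 47 livers and 0.11 over 45, and 88 of the 89 called genes kept their sign. A measurement in CC004 or CC016 comes from 1 mouse and 1 library, and the pair was singled out after the values were seen.

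**Figure D3:**
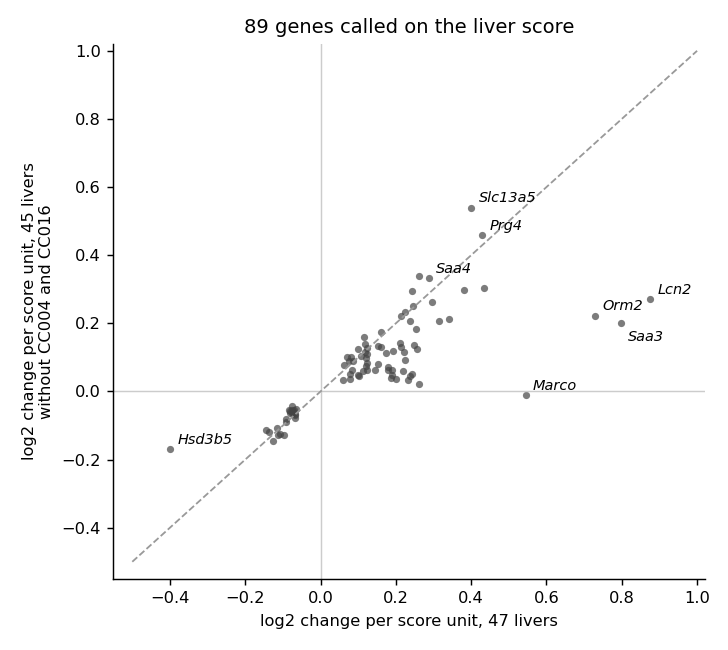
Log2 change per unit of the liver score for the 89 genes called over 47 livers (horizontal axis) against the same slope over 45 livers without CC004 and CC016 (vertical axis), with the dashed line marking equal values and 1 point per gene. Saa3, Lcn2, Orm2 and Marco lie far below the line, and Saa4, Prg4 and Slc13a5 on or above it.

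CC004 and CC016 held the top 2 places of the 47 livers for Saa3, Lcn2, Orm2, Steap4, Cxcl1 and Serping1. The pair did so for 103 of the 10149 genes in the slope fit and for 5 of its 37 positive acute-phase members. Of the 66 genes that rose with the score, 29 had the pair in the top 2 places. The genes named here were all among these 66, whose calls rested on the pair, so their top ranks are not independent of those calls. Saa3 stood at 147 CPM in CC004 and 173 CPM in CC016, against a median of 2.06 and a highest value of 11.04 in the other 45 livers. Lcn2 stood at 397 and 344 CPM, against a median of 3.33 and a highest value of 55.5, in CC020. Orm2 stood at 996 and 276 CPM against a median of 9.62 and a highest value of 87.4, in CC049. These 3 genes thus set both livers apart by factors of 28.7 to 119 over the median of the rest. Steap4, a metalloreductase, was at 625 and 495 CPM against a median of 169.6 (highest other 387), and Cxcl1 at 68.0 and 62.8 CPM against 12.4 (highest other 50.4). Serping1 was at 1391 and 1329 CPM against 684 (highest other 953).

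Other genes differed between the pair. Apcs was at 1747 CPM in CC004 and 519 in CC016, Lrg1 at 516 and 134, and Hpx at 12190 and 6817, against medians of 188, 63.4 and 3358 in the other 45 livers. CC004 also had the lowest Ttr of the 47 livers, 2633 CPM, and Alb at 40160 CPM ranked 44 of 47, against a median of 67820. In CC016, Ttr (4046 CPM) ranked 38 and Alb (78790 CPM) 12. Crp followed the same split, with 430.0 CPM in CC004, the highest of 47, and 244 in CC016. Hamp ranked 25 and 18 of 47 and Orm3 9 and 8 in the pair, so not every acute-phase gene was at its highest there.

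Some macrophage genes rose with the score over the 47 livers. Of the 16 Kupffer cell and macrophage markers in the slope fit, 3 rose, Cd68 (0.25 per unit, adjusted p = 0.013), Lyz2 (0.26, adjusted p = 0.0305) and Marco (0.54, adjusted p = 0.0444), against 0.65% of all genes. None of the 3 was called without CC004 alone or without CC016 alone. Of the 16, 12 had their highest value in CC004 or CC016, against 11% of all genes in the fit. The monocyte and dendritic cell list had 0 of 5 called in this fit, and the T and NK cell list 0 of 3. All 5 and all 3 nevertheless had their highest value in CC004 or CC016, so this was not particular to macrophage markers. The same held for 14 of 31 type I interferon genes and 16 of 33 in the interleukin-1, tumour necrosis factor and NF-kB list. In the interleukin-6 family and STAT3 list it held for 2 of 17. Lyz2, a lysozyme of macrophages and neutrophils, was at 533 CPM in CC016 and 87.8 in CC004 against a median of 26.8 in the other livers. Marco, a macrophage scavenger receptor, was at 190.5 and 64.6 CPM against 1.84. Without both livers the slopes of Lyz2, Marco and Cd68 were 0.02, -0.01 and 0.14. Clec4f, a marker of resident Kupffer cells, was at 138 CPM in CC016 and 176 in CC004, within the range of the other 45 livers (highest 195). It is 1 gene of the list, and 8 of the 16 had CC004 and CC016 in the top 2 places. Over the fit this held for 103 of 10149 genes. Further genes of haematopoietic cells among the 66 were Itgb2, Csf2rb, Btk, Fgr, Pirb, Fcer1g and Ccl6, named after their values were seen, and Itgb2, the beta-2 integrin, was at 113.5 CPM in CC016 and 19.2 in CC004 against a median of 7.66.

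Summed over the marker lists, the 2 livers differed. The 21 Kupffer cell and macrophage markers summed to 2642 CPM in CC016 and 1328 in CC004, the 2 highest of 47, against medians of 758 in the high and 640.2 in the low livers. The 22 neutrophil and myeloid progenitor markers other than Lcn2 summed to 91.6 CPM in CC016 and 23.9 in CC004, which ranked 3 of 47. The medians were 11.9 in the high and 8.18 in the low livers, and S100a9 was at 0 in all 32. The 17 monocyte and dendritic cell markers summed to 179.5 CPM in CC016 and 30.3 in CC004, with medians of 20.7 and 17.5 in the groups. CC004 ranked 6 of 47 for this sum, and the highest low liver stood above it at 41.5 CPM. The 22 T and NK cell markers summed to 116 CPM in CC016 and 7.40 in CC004, whose rank was 19 of 47. Hepatocyte markers summed to 126700 CPM in CC016 and 92380 in CC004. That list includes Alb, Ttr and Apoa1, which are also on the negative acute-phase side, and Alb was low in CC004. The sum is therefore not a measure of hepatocyte content apart from these genes. In whole tissue, more cells of a type and more RNA per cell cannot be told apart, and the part of these cells in the acute-phase values was not tested.

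**Figure D4:**
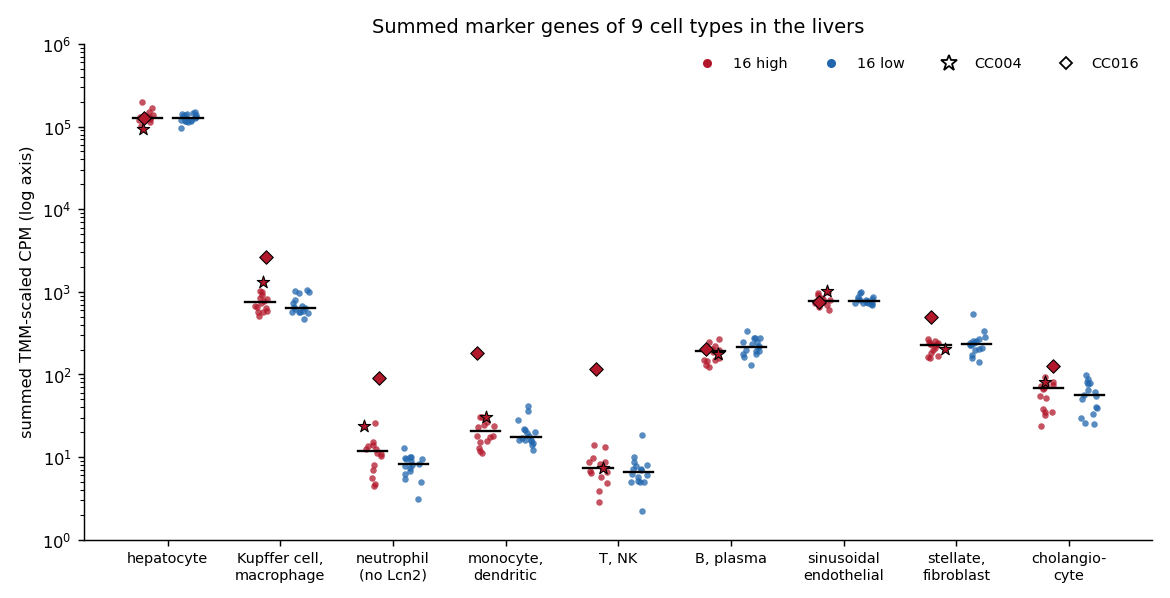
Summed TMM-scaled CPM (log axis) of the marker genes of 9 cell types in each high (red) and low (blue) liver, with black bars at the medians, a star for CC004 and a diamond for CC016; Lcn2 is left out of the neutrophil markers. CC016 lies above all other livers for the macrophage, neutrophil, monocyte and T and NK cell markers. CC004 is the lowest high liver for hepatocyte markers, which include Alb and Ttr.

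For the other lists of cell markers in the 32 livers, endothelial markers had medians of 786 CPM in the high and 782 in the low livers, B and plasma cell markers 193 and 218, stellate cell and fibroblast markers 230.0 and 235, cholangiocyte markers 68.3 and 55.9, erythroid markers 7.47 and 11.8, and platelet markers 4.38 and 3.31. Pancreas and gut markers had medians of 120.1 and 118.9 CPM. The group ranges overlapped in each. CC016 was highest of 47 for cholangiocyte markers (127 CPM) and platelet markers (13.4 CPM) and second for stellate cell and fibroblast markers (494 CPM), and CC004 was highest for endothelial markers (1018 CPM).

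Among the 23 genes that fell with the score, 11 have symbols of respiratory chain and ATP synthase subunits (Nduf, Sdh, Uqcr and Atp5), among 71 such genes in the fit, where 0.227% of all genes fell, and 0 of the 66 that rose do. Without CC004, 3 of the 11 were still called (Ndufa11, Ndufb11 and Ndufc2), and without CC016, 1 (Sdhd). A further 3 of the 23, Rpl8, Rpl15 and Rps19, encode ribosomal proteins, of 77 in the fit, and 0 of these were called without CC004 and 1, Rpl8, without CC016. These groups were noticed after the values were seen. Their slopes were small, with a median of -0.08 over the 23 and -0.07 without CC004 and CC016. The largest fall was that of Hsd3b5, a male-biased steroid reductase gene of mouse liver, at -0.40 per unit (adjusted p = 0.0237). Hsd3b5 was at 1.95 CPM in CC016, the lowest of 47, and 82.4 in CC004, against a median of 254 in the others. Slco1a1, an organic anion transporter (-0.14), and Ttr (-0.08, adjusted p = 0.0493) were also called, Ttr in only 18 of the 47 fits that left out 1 liver.

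Kidneys and lungs of the same mice were not used by the rule. Between the 16 mice with high and the 16 with low liver scores, 0 of 11877 genes were called in kidney and 0 of 13459 in lung by limma-voom, and edgeR also called 0 in each. At an unadjusted p under 0.05, 397 genes differed in kidney (1.56% higher and 1.78% lower) and 413 in lung (1.64% and 1.43%). Saa1 and Saa2 were close to absent in kidney, with medians of 0 CPM in both groups. The highest kidney values, 9.90 CPM of Saa1 and 6.46 of Saa2, were in CC049, a strain of the low group. The kidneys of CC004 and CC016 had 0.625 and 0 CPM of Saa1, and no count of Saa2.

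In lung, Saa1 reached 6.77 CPM in the high mice (median 0.223) and 2.32 in the low mice (median 0). Without the low-count filter, its log2 difference was 1.09 (SE 0.52, unadjusted p = 0.0446, adjusted p = 0.9997), and that of Saa2 was 0.68 (SE 0.56). The highest lung value of both genes was in CC017, and CC004 and CC016 had 0.755 and 0 CPM of Saa1. Saa3 in lung ran from 0.482 to 255 CPM in the high mice (median 3.98) and from 0.142 to 8.35 in the low (median 2.15), a log2 difference of 1.37 (SE 0.63, unadjusted p = 0.0376, adjusted p = 0.9997). Its peak was in the lung of CC040, which also held the highest Lcn2 of the lungs, 396 CPM, against 48.65 in CC004 and 45.8 in CC016. In kidney, Lcn2 peaked at 75.2 CPM in CC020, and its log2 difference was -0.38 (SE 0.42); in lung it was 0.49 (SE 0.32). The positive acute-phase list had 4 of 30 members higher and 0 lower at an unadjusted p under 0.05 in lung, and 0 of 27 higher and 2 lower in kidney, with medians of 0.18 and -0.03.

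**Figure D5:**
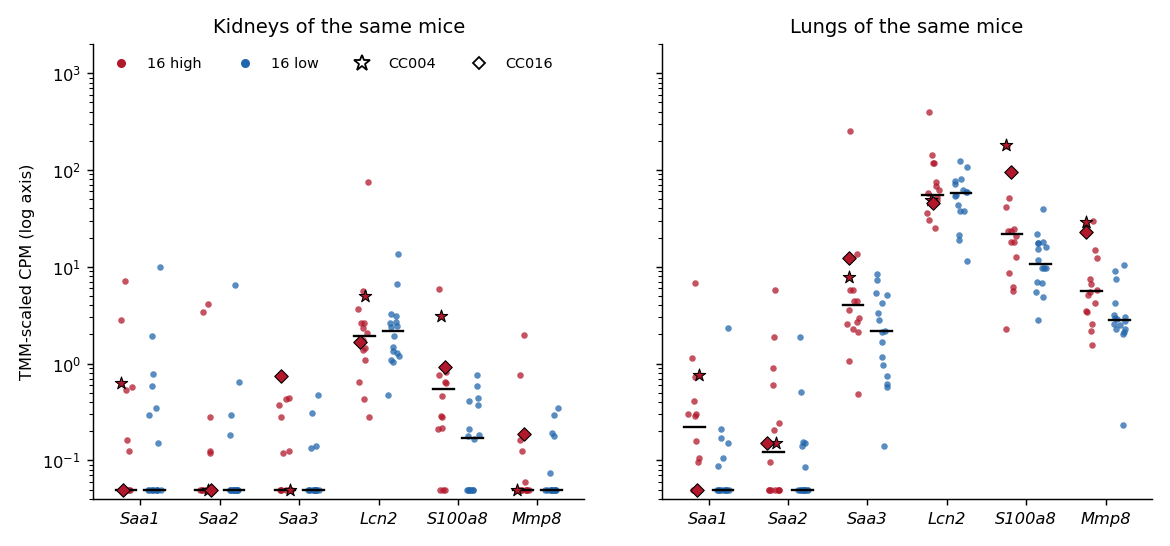
TMM-scaled CPM (log axis) of 6 genes in kidneys (left) and lungs (right) of the 16 mice with high (red) and 16 with low (blue) liver scores, with black bars at the medians, a star for CC004 and a diamond for CC016; values under 0.05, including 0, are drawn at 0.05. The groups overlap for every gene in both tissues, and CC004 and CC016 are not the highest for Saa1, Saa2 or Lcn2.

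With the liver score as a continuous measure over 47 mice, 6 genes rose in lung (0.045% of 13334) and 4 in kidney (0.0337% of 11852), and 0 fell in either. The lung genes were Mmp8, S100a8, Retnlg, Cxcr2, Mxd1 and Mirt2, of which Mmp8, S100a8, Retnlg and Cxcr2 are neutrophil markers. Mmp8, neutrophil collagenase, rose by 0.40 per unit (SE 0.06, adjusted p = 7.45e-05) and S100a8, a subunit of calprotectin, by 0.43 (SE 0.07, adjusted p = 0.00172). S100a8 was at 180.4 CPM in the lung of CC004 and 94.8 in that of CC016, but 177.7 in CC040, against a median of 13.2 in the other 45 lungs. Of 12 neutrophil and myeloid progenitor markers tested in lung, 4 rose with the score, Mmp8, S100a8, Retnlg and Cxcr2, and between the groups 3 were higher and 0 lower at an unadjusted p under 0.05, against 1.64% and 1.43% of all genes, with a median log2 difference of 0.74. The 22 such markers other than Lcn2 summed to a median of 506 CPM in lungs of the high mice and 686.5 CPM in those of the low mice. The sum was 1237 in CC004 and 1012 in CC016. It leaned on 1 gene, Chil3, which is also on the monocyte and dendritic cell list. Chil3 was at 600.6 CPM in CC004 and 620.5 in CC016, with a median of 374.7 and a highest value of 3105 in the other 45 lungs. The lower median sum in the high mice is therefore no measure of the 22 markers alike. The kidney genes were Synpo, a podocyte actin-associated protein (0.15 per unit, adjusted p = 0.00957), Serpina3g (0.46), Gsdmd (0.16) and Ly75 (0.21). No type I interferon gene was called, but 22 of 30 had their highest kidney value in CC004 or CC016. That held for 1 of 26 positive acute-phase members and for 700 of 11852 genes in the kidney fit, and its cause was not tested. Without CC004 and CC016, 0 genes were called in either tissue, and 18 in lung and 20 in kidney without CC004 alone. Without CC016 alone, 4 were called in lung and 0 in kidney.

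Whether the contrast between high and low mice differed between tissues was tested as an interaction, with the mouse as a block. Between liver and kidney 0 of 11619 genes passed, with 646 at an unadjusted p under 0.05, and between liver and lung 1 of 12978 passed, Slc39a2, with a difference of -2.54 on the log2 scale for liver minus lung (SE 0.48, adjusted p = 0.0244). Slc39a2 did not pass without the block or on differences within mice. Of the 10 genes of the response fixed for this test, Lcn2 had the largest difference between liver and kidney, 1.70 (SE 0.96, adjusted p = 0.928), and between liver and lung, 1.03 (SE 0.85, adjusted p = 0.913). For Saa3 the differences were 0.49 (SE 0.99) and -0.25 (SE 0.90). In the fit of differences within mice, Saa3 gave 0.88 (SE 0.68) for liver minus kidney and 0.05 (SE 0.92) for liver minus lung, where its sign turned, and Lcn2 gave 1.95 (SE 0.71, adjusted p = 0.917) and 1.62 (SE 0.77, adjusted p = 0.9197). None of the 10 passed in either fit, and with standard errors this large the tests do not show that the tissues were alike.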

How the data were processed

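RNA-seq of liver, lung and kidney from 47 CC mice was used. The authors aligned 50-base single-end reads of ribosome-depleted RNA with STAR (version 2.5.3a per the submitters' processing notes) to strain pseudo-genomes made from Build37, and quantified uniquely aligned reads with RSEM on RefSeq transcripts. The expected counts that the authors deposited (24423 genes, 25 values not whole) were rounded; the TPM that the authors deposited served as an alternative, and FPKM was not used. Totals without Rn45s were 1341632 to 38738025 counts in liver, 2006015 to 14217228 in kidney and 2320936 to 17025147 in lung.

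Groups came from the score in liver. Genes above 1 CPM in 30% or more of a fit's libraries were scaled by TMM (edgeR 4.0.16) and tested two-sided with limma-voom (limma 3.58.1, R 4.3.3) and Benjamini-Hochberg adjustment over all genes, called at q ≤ 0.05; Saa1 and Saa2 left the liver table before adjustment. Values shown are CPM scaled by TMM over the 47 libraries of a tissue, apart from Saa1 and Saa2 in liver, which are CPM as in the score. Gene lists were described without a set test. Libraries of the same mouse were paired by strain in the interaction tests. The members and lists were chosen with earlier results of these data known. Named were the fixed acute-phase, cytokine and carrier genes, genes called between the groups, Saa1, Saa2, Saa3 and Lcn2 in kidney and lung, and marker genes; others are named after their values were seen. Alternatives covered scaling, test (edgeR, DESeq2 1.42.0), unit, filter, samples, group size, score, Rn45s, library total, threshold and each liver left out; fits without CC004, CC016 or both, and each of 47 livers left out of the slope fit, were added after seeing the data. Fits were tested on simulated data. Python 3.11.15, numpy 2.4.6, pandas 2.3.3 and matplotlib 3.10.9 were used. Sequencing batches were not analysed here.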

Additional observations from a re-analysis of the deposited data

Results flagged for a closer look

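The difference between groups in Slc39a2 was itself different between tissues. In the fit with the mouse as a block, the contrast of high against low mice was -2.535 on the log2 scale for liver minus lung (SE 0.48, adjusted p = 0.0244 with limma-voom over 12978 genes). In liver 2 of 16 high livers lay above the low median, whereas in lung the log2 difference was 0.15 (SE 0.24). The difference between tissues did not pass without the block or on differences within mice, and its cause was not tested.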

How the results depend on the processing

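The count of 1 gene called between the 16 high and 16 low livers was 1 under DESeq2 size factors, edgeR's quasi-likelihood test (Ces2h in place of Slc39a2), 10 against 10 livers (Saa4), an added threshold of 1 on the absolute log2 change, and without CC004 and CC016. It was 0 with total counts in place of TMM, with log2(TPM + 1), with the score from Saa2 alone, with the library total as a covariate and at q ≤ 0.01. It was 2 without the low-count filter, 3 with a filter on the mean, 2 with all 47 livers in the fit, 5 for 23 against 23 livers, 4 with the score from Saa1 alone, 4 with Rn45s kept, 4 at q ≤ 0.1 and 12 with the DESeq2 Wald test (8 higher and 4 lower). Leaving out each of the 32 livers gave 0 to 4 genes. With the score as a continuous measure 89 genes were called, 36 without CC004, 24 without CC016 and 0 without both, and 24 to 146 when each of the 47 livers was left out. The 0 of kidney became 4 on the continuous score and 20 without CC004. The 0 of lung became 6, and 18 without CC004 and 4 without CC016, and kidney and lung stayed at 0 under the other alternatives. In the interaction, where libraries are paired by mouse, the fit with no replicate block and the fit of differences within mice gave 0 genes for liver against kidney and 0 for liver against lung, where the block gave 0 and 1. The causes of these changes were not tested. For the 24 named genes, 336 of 360 values under other settings and 740 of 768 values with 1 liver left out had the sign of the main value. In the shallowest liver 3 counts correspond to 2.24 CPM, which limits what can be said of cytokine genes and of Slc39a2.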
